A study of Mus musculus with 2 samples.

Results

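The cells described here are luminal epithelial cells of the mouse uterus, from a single-cell library labelled knockout for Mig-6, whose RNA was richest in Il1a, Icam1 and Cxcl2. They were chosen from the expression values themselves. Barcodes of the library labelled knockout were kept with 500 or more genes and at most 15% mitochondrial molecules, which left 2951 of 3118. Of these, 1333 passed as luminal. They carried at least 10 molecules per 10,000 of Epcam, Krt8, Krt18 and Cldn7 together, under 5 of the stromal genes Dcn, Col1a2 and Col3a1, and under 10 of the gland genes Prss29, Prss28, Spink1, Cxcl15 and Krt83. The score was the sum of Il1a, Icam1 and Cxcl2 molecules per 10,000, and the highest-scoring 33.3% gave 444 members and left 889 other luminal barcodes, called the rest. The series held 7745 deposited barcodes in all.

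Il1a encodes interleukin-1α, an alarmin that epithelial cells hold and release on damage and that acts through the interleukin-1 receptor. Icam1 encodes an adhesion protein that binds integrins on leukocytes, and Cxcl2 encodes a chemokine that attracts neutrophils through CXCR2. All 3 genes are classical targets of the transcription factor NF-κB, which inflammatory receptors switch on and which also induces its own inhibitors, among them IκBα (Nfkbia) and A20 (Tnfaip3). The luminal epithelium lines the uterine cavity and is the first maternal layer that the embryo meets at implantation.

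The study compared uteri of pregnant mice at gestational day 3.5 by droplet sequencing (10x), with 1 library from Pgrcre/+Mig-6f/f mice, labelled knockout, and 1 library from Mig-6f/f mice, the control. Both carry floxed Mig-6, a feedback inhibitor of the EGF receptor whose gene is Errfi1, and the library labelled knockout also carries Cre at the progesterone receptor gene, so that an effect of Cre at Pgr cannot be told apart from one of Mig-6 deletion. Cells were freed with trypsin and blood cells were depleted with a dead cell removal kit, per the labels' protocols; the sources used here do not give the number of animals in a library. With 1 library a genotype there is no replicate, so no test was made and the intervals below are 95% intervals that cover counting error only.

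The members are the high end of a ranking, and the scores showed no gap at the cut. A cut at a fixed share cannot show whether they are a separate population. The 3 lowest members scored 4.13, 4.16 and 4.16 per 10,000, and the 3 highest barcodes of the rest scored 4.12, 4.10 and 4.10. The median member scored 9.68 and the highest 88.1, while 484 of the 1333 luminal barcodes (36.3%) had no molecule of the 3 genes. The median member held 12 molecules of the 3 genes, and 9 members rested on 1 molecule.

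**Figure D1:**
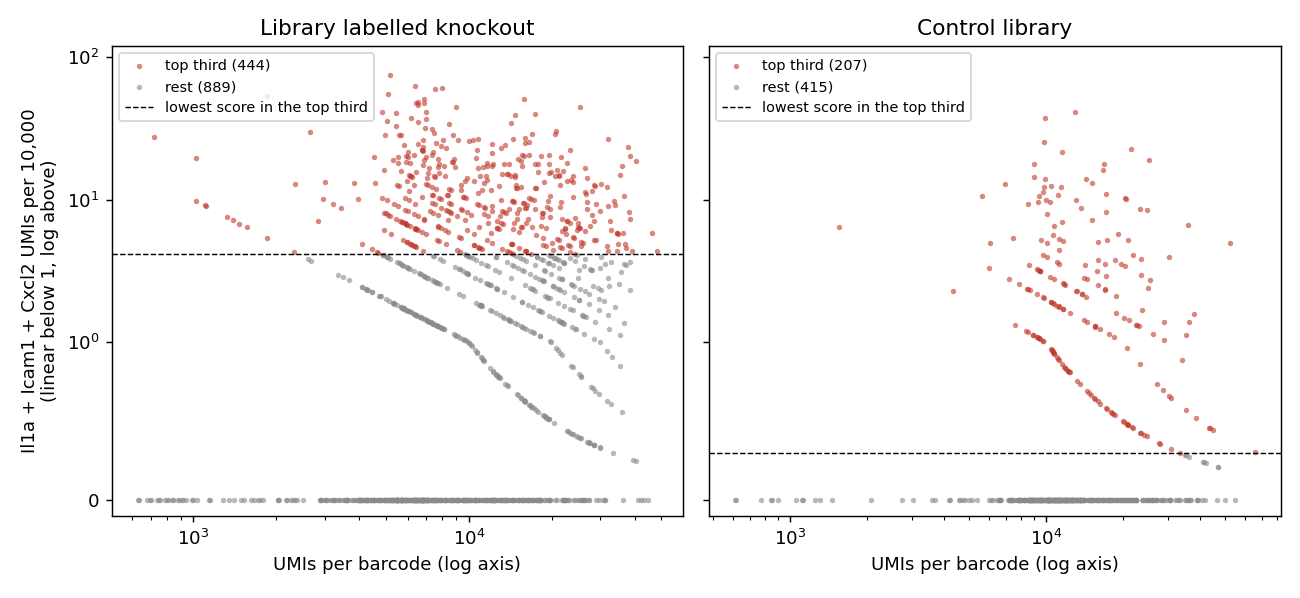
Each point is 1 luminal barcode, with its total of unique molecules (UMIs, log axis) across and its summed Il1a, Icam1 and Cxcl2 UMIs per 10,000 upwards (linear below 1, log above), for the library labelled knockout on the left and the control on the right. Members (red) lie above the dashed line at 4.13 in the library labelled knockout; the same rule in the control put the line at 0.298, so that a single UMI is enough in many barcodes.

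The start-site windows of the genes that chose the cells, and of the chemokine gene Cxcl1 and the inhibitor gene Nfkbia described with them, are shown because the letters that NF-κB proteins bind can be looked for there. They come from RefSeq on GRCm38.p6, a different build from the mm39 named in the submitters' processing notes, and run from 250 bases before to 50 bases after the start, 5′ to 3′ along the gene. Icam1 is at chr9:21015690-21015989 (plus strand), Cxcl2 at chr5:90903649-90903948 (plus), Il1a at chr2:129309923-129310222 (minus), Cxcl1 at chr5:90890995-90891294 (plus) and Nfkbia at chr12:55492598-55492897 (minus). Capitals mark each match, on either strand, to GGNNNTTCC, a short form of the NF-κB motif that reads GGAANNNCC on the other strand.
Icam1: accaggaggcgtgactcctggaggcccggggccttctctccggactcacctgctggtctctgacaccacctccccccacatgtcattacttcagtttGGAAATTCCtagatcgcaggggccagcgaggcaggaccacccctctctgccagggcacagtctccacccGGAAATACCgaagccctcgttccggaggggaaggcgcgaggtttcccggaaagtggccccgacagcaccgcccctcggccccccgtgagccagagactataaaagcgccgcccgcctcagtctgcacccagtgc
Cxcl2: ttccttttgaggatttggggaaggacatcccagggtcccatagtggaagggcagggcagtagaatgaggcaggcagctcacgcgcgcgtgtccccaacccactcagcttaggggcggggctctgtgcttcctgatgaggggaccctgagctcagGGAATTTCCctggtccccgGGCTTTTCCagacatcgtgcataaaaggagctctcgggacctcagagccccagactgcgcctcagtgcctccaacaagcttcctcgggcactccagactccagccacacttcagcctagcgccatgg
Il1a: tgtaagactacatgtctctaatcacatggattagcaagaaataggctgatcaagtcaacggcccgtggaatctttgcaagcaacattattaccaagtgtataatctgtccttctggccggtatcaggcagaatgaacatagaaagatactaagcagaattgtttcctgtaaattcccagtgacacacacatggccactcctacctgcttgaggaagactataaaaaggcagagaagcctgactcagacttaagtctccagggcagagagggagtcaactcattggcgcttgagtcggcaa
Cxcl1: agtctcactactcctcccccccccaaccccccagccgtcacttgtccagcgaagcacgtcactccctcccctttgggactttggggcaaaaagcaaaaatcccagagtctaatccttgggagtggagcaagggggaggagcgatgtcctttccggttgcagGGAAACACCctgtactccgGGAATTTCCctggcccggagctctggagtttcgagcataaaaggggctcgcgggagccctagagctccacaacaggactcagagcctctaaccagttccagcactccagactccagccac
Nfkbia: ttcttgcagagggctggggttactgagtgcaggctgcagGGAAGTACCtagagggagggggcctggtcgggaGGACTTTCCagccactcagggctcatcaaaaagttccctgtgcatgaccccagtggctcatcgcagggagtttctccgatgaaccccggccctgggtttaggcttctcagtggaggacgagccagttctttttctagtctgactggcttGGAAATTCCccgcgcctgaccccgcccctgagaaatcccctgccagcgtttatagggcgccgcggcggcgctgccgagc

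Cxcl2 and Cxcl1 shared the match GGAATTTCC, 96 and 70 bases before their starts. Icam1 held GGAAATTCC, which is the same match read on the other strand, 153 bases before its start, and Nfkbia held GGAAATTCC 29 bases before its start. The Il1a window had no match, which says only that these letters are not in this window. Over all genes, 18.5% of the windows (6070 of 32851) held a match. Windows were found for 10 of the 15 genes singled out below as higher in members, and 7 of their 15 windows (46.7%) held one. For the genes singled out as lower, 10 of 15 had windows and 1 of 14 windows (7.14%), that of Srek1ip1, held one. A match is a description of letters and not a binding site, and the motif was chosen with the results known.

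Cxcl2 supplied most of the score. It reached 791 CPM in members (molecules summed over a group's barcodes and scaled to 1000000 in all) and 41.9 CPM in the rest, and had the highest count of the 3 genes in 285 of the 444 members. Icam1 was 243 CPM in members and 30.9 CPM in the rest, and led in 72 members. Il1a was 171 CPM in members and 39.9 CPM in the rest, and led in 61, with 26 members tied. These values made the choice and describe it only.

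The rule, which sums the 3 genes, also sets how many of them a barcode shows, so the following counts are a description. All 3 were detected in 199 members (44.8%), 2 in 183 and 1 in 62. In the rest, 44 barcodes had all 3, 113 had 2 and 248 had 1.

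Each gene was next measured in cells chosen by the other 2 genes, which leaves the measured gene out of that choice. The 3 genes define the members together, and the groups so chosen shared 75.2% to 89.0% of their barcodes with the members. These ratios and the thinned shares below therefore describe the choice only. Cxcl2 was then 615 CPM in the 444 barcodes with most of the other 2 and 148 CPM in the rest, 4.16-fold higher (3.92 to 4.41). Icam1 was 193 CPM in the barcodes so chosen and 56.7 CPM in the others, 3.40-fold higher (3.08 to 3.75). Il1a differed least, with 130 CPM in the barcodes so chosen and 61.6 CPM in the others, 2.11-fold higher (1.90 to 2.35). Each gene was thus higher where the other pair was high, with Il1a the loosest of the 3. Because deep barcodes show more genes, 1155 barcodes were also thinned to 5000 molecules each and 178 shallower ones were left out. Cxcl2 was then detected in 65.5% of barcodes with an Icam1 molecule (60.1 to 70.7) and in 27.6% of those without (24.6 to 30.8). With and without an Il1a molecule, Cxcl2 was detected in 57.3% (51.6 to 62.9) and 31.0% (27.9 to 34.3), and Icam1 in 38.5% (33.1 to 44.2) and 23.9% (21.1 to 26.9).

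Each molecule was also placed at random in 1 of 2 equal sets, and cells were chosen on the first set. In the second set the chosen cells held 13.4-fold more Cxcl2 (11.9 to 15.2), 6.03-fold more Icam1 (5.16 to 7.08) and 3.20-fold more Il1a (2.74 to 3.74). Both sets come from the same barcodes and the same genes that the rule used, so these ratios describe the choice only.

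Il1a was rare in gland, stromal and leukocyte barcodes. It was detected in 68.7% of members and 26.5% of the rest, against 1.96% of 102 gland barcodes, 0.0887% of 1127 stromal barcodes and 1.16% of 173 barcodes with the leukocyte gene Ptprc. Cxcl2 was detected in 88.7% of members and 21.3% of the rest, against 7.84% of gland, 6.39% of stromal and 9.25% of Ptprc barcodes. Its summed level was nonetheless high in Ptprc barcodes, at 543 CPM, against 791 CPM in members and 41.9 CPM in the rest. Gland and stromal barcodes had 36.7 and 56.9 CPM. Icam1 was detected in 73.4% of members and 20.4% of the rest, but also in 22.7% of stromal and 20.2% of Ptprc barcodes, with 0.980% in glands. In 53 barcodes that passed the epithelial gate but also carried stromal genes, and so were left out of the luminal set, Il1a was detected in 24.5%, Icam1 in 37.7% and Cxcl2 in 41.5%. The median depths were 10927 molecules in members, 9639 in the rest, 5772 in glands, 3598 in stroma, 1765 in Ptprc barcodes and 10055 in the epithelial and stromal ones, and the part of depth in these shares was not tested.

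Members were epithelial by their other genes. All 8 luminal markers were detected, with a summed 17241 CPM in members and 16142 CPM in the rest, mostly from Prap1 and Ltf; Wnt7a and Calb1 were low, at 3.32 and 12.4 CPM in members and 1.75 and 17.8 CPM in the rest. Gland markers summed to 18.7 CPM in members and 45.2 CPM in the rest, with Prss28 and Calca at 0 in members; 5 of these 9 markers were used in the luminal gate.

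Neutrophil and macrophage lists summed lower in members than in the rest. Of 8 neutrophil markers, S100a8, S100a9, Retnlg and Mmp9 were at 0 in members and in the rest and Csf3r was at 0 in members, and the list summed to 6.14 CPM in members and 8.48 CPM in the rest. Nearly all of it was Ly6g, with 35 of the 37 molecules in members, 5.81 CPM in members and 7.56 CPM in the rest. Of 10 macrophage markers, C1qa, C1qb, C1qc and Adgre1 were at 0 in members, and the list summed to 43.8 CPM in members and 65.7 CPM in the rest, mostly from Cd68, which was 35.3 CPM in members and 33.4 CPM in the rest. Lyz2 was 5.14 CPM in members and 27.8 CPM in the rest. Ptprc, Csf1r, Tyrobp and Fcer1g had 12, 2, 3 and 3 molecules in members and 14, 7, 6 and 6 in the rest. Ptprc was thus higher in members, at 1.99 CPM against 1.29 CPM. The 9 NK and T cell markers also summed higher in members, at 3.15 CPM against 2.03 CPM, with 15 and 5 molecules of Gzma. The 6 B and plasma cell markers summed to 21.2 CPM in members and 24.0 CPM in the rest. The 10 stromal markers summed to 69.2 CPM in members and 73.6 CPM in the rest. The smooth muscle and pericyte list went the other way, with 90.3 CPM in members and 47.2 CPM in the rest, and 5 of its 6 detected markers were higher in members. Of its 544 molecules in members, 460 were Acta2, the actin of contractile cells. Acta2 was 76.3 CPM in members and 36.4 CPM in the rest, Notch3 3.32 and 1.20 CPM, Cnn1 3.82 and 2.31 CPM, Tagln 3.32 and 2.67 CPM, and Myh11 1.16 and 1.01 CPM. Des was 2.32 CPM in members and 3.60 CPM in the rest, and Rgs5 and Kcnj8 were at 0 in both. The part of such RNA in the results was not tested.

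Depth and quality differed slightly. The median member had 3461 genes and 3.84% mitochondrial molecules, and the median barcode of the rest had 3141 genes and 4.51%. The score followed depth weakly (Spearman's rho 0.204 over 1333 barcodes of 1 library, a description only), so alternatives that equalise depth were computed. The libraries share 3 barcodes, 0 of them luminal in both, and 2 members carry a barcode that also occurs in the control.

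Across 8839 genes with at least 100 molecules in members and rest together, called measured, and leaving out the 3 score genes, 429 (4.85%) were at least 1.5-fold higher in members and 411 (4.65%) at least 1.5-fold lower, and the median log2 ratio of all genes was -0.07. The rule used this contrast, so these counts and the gene values that follow describe the members and support nothing.

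The genes singled out as higher were the 15 whose interval lay farthest above equality. Cxcl1, a second neutrophil chemokine that acts through CXCR2, was 436 CPM in members and 76.3 CPM in the rest, 5.72-fold higher (5.29 to 6.19), and was detected in 82.0% of members and 37.7% of the rest. Csf3, the granulocyte growth factor G-CSF, was 122 CPM in members and 19.9 CPM in the rest, 6.14-fold higher (5.27 to 7.18). Il1f6, the older symbol of interleukin-36α, an epithelial cytokine of the interleukin-1 family, was 201 CPM in members and 65.6 CPM in the rest, 3.07-fold higher (2.80 to 3.37). All 3 encode secreted signals, and the first and second act on granulocytes.

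Parts of the NF-κB pathway itself were in the same 15. Nfkb1, which encodes p105 and p50, was 480 CPM in members and 176 CPM in the rest, 2.73-fold higher (2.57 to 2.89). Nfkbid, which encodes a nuclear IκB protein, was 74.8 CPM in members and 20.01 CPM in the rest, 3.74-fold higher (3.17 to 4.42). Tnfaip3, the gene of A20, was 186 CPM in members and 67.0 CPM in the rest, 2.77-fold higher (2.52 to 3.04).

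The other higher genes were regulators, stress products and metabolic enzymes. Gadd45b, a stress-induced gene, was 3.19-fold higher, Ovol1, an epithelial transcription factor, 2.92-fold, Fosl1, an AP-1 subunit, 2.67-fold, and Pim1, a kinase gene induced by STAT signals, 2.30-fold. Slpi, a secreted inhibitor of leukocyte proteases, was 2.88-fold higher, and Gdf15, a stress-induced cytokine, 2.31-fold. Hacd2, an enzyme of fatty acid elongation, was 2.53-fold higher, and Slc5a8, a monocarboxylate transporter, 2.78-fold.

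Ehhadh, a peroxisomal enzyme of fatty acid oxidation, had the largest ratio of the 15, at 7.85 (6.06 to 10.3), with 52.1 CPM in members and 6.64 CPM in the rest. It was detected in 20.9% of members and 4.84% of the rest; at this level and depth a barcode without a molecule does not show that the gene was off.

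The genes singled out as lower differed by less. Rmst, a long noncoding RNA, was 24.1 CPM in members and 55.9 CPM in the rest, a ratio of 0.43 (0.36 to 0.52). Ppp2r2b, a regulatory subunit of protein phosphatase PP2A, was 90.8 CPM in members and 177 CPM in the rest, a ratio of 0.51. Ror2, a receptor for WNT5A, was 51.8 CPM in members and 99.96 CPM in the rest, and Nfia, a transcription factor, 63.4 and 115 CPM. The most abundant of them was S100g, the calcium-binding protein calbindin-D9k, with 2003 CPM in members and 2970 CPM in the rest, a ratio of 0.67 that falls just short of 1.5-fold. Slc39a4, a zinc importer, was 143 CPM in members and 229 CPM in the rest. The other 9 (Rpp25l, Anpep, Mllt3, Srek1ip1, Tceal9, Pde3b, Galnt18, Sv2b and Gpx2) had ratios from 0.52 to 0.63.

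**Figure D2:**
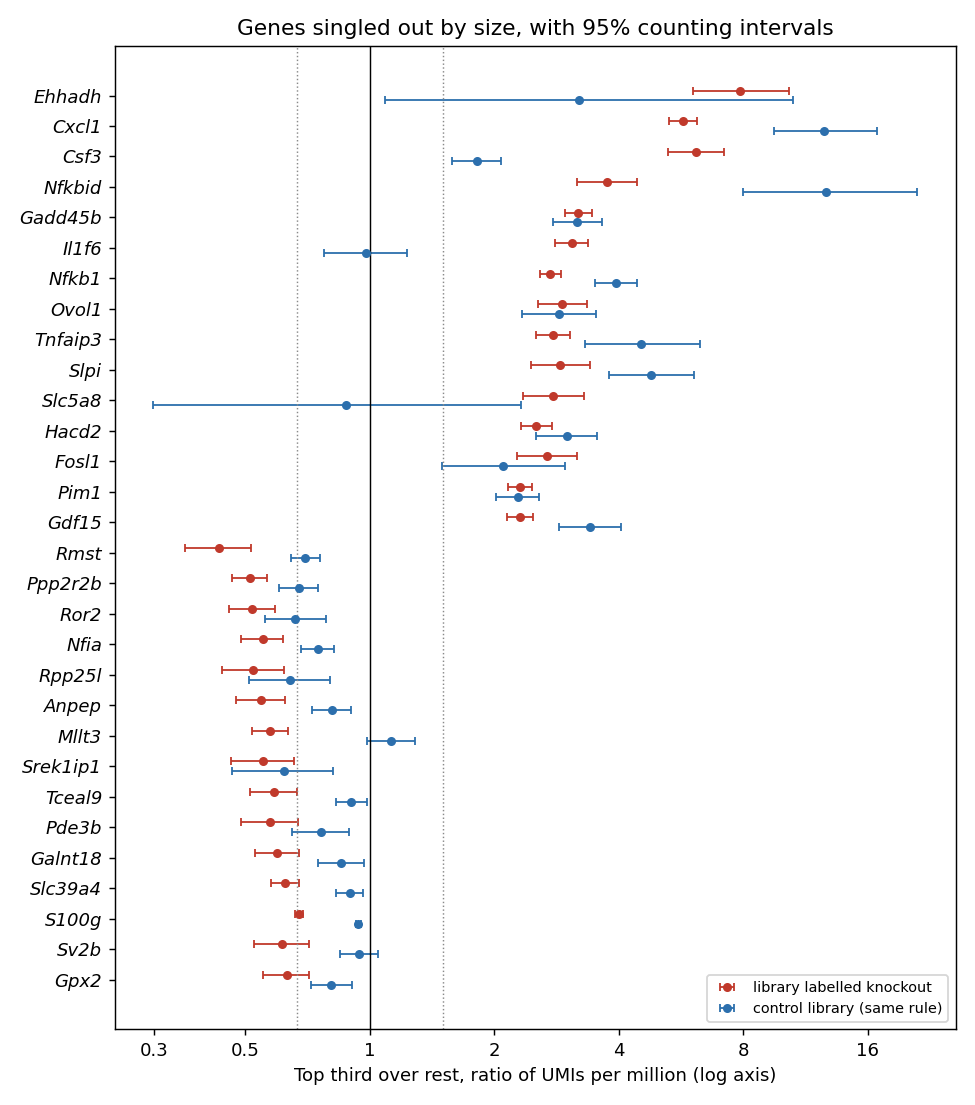
Ratio of CPM in the high-score barcodes over the rest (log axis) for the 15 genes singled out as higher and the 15 singled out as lower in the library labelled knockout (red), with the same ratio in the control library (blue) and 95% counting intervals; dotted lines mark 1.5-fold. Cxcl1 lies at 5.72 in the library labelled knockout and at 12.5 in the control, Il1f6 at 3.07 and 0.98, and Ehhadh has a wide interval in the control, where it rests on 17 UMIs.

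The luminal barcodes were placed in 4 bins, of score 0 (484 barcodes, median 6825 molecules), above 0 but not members (405, median 14845), the lower-scoring members (222, median 12677) and the higher-scoring members (222, median 9388). From the lowest bin to the highest, all 15 genes singled out as higher stood higher in each bin than in the one before, and 14 of the 15 singled out as lower stood lower, Srek1ip1 being the exception. In the same order, Nfkbia, from the NF-κB list, was 589, 1173, 1779 and 2368 CPM, and Cxcl1 was 32.9, 106, 260 and 649 CPM. Csf3 was 11.8, 25.5, 84.6 and 168 CPM over the same bins. Rmst ran downwards, with 78.3, 40.5, 27.6 and 19.8 CPM, and S100g with 3539, 2581, 2034 and 1965 CPM. Depth was lowest in the score 0 bin and differed between the others, and its part in these levels was not tested. Ehhadh was concentrated at the top, with 1.82, 9.94, 20.9 and 89.7 CPM.

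**Figure D3:**
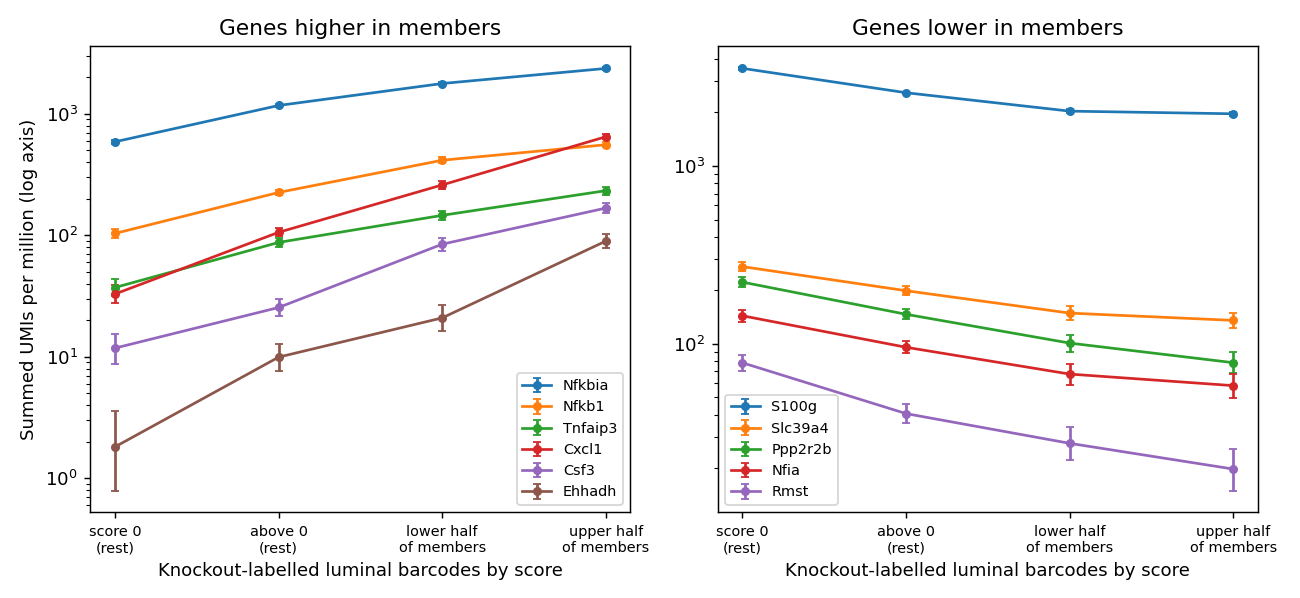
Summed CPM (log axis) of 6 genes higher in members (left) and 5 lower in members (right) over the 4 score bins of luminal barcodes of the library labelled knockout, from score 0 to the higher-scoring members, with 95% Poisson intervals. Nfkbia climbs to 2368 CPM and Cxcl1 to 649 CPM in the higher-scoring members, and Rmst is 19.8 CPM there.

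Gene lists place these genes in their pathways, beside 4.85% of all genes past 1.5-fold higher and 4.65% past 1.5-fold lower in the same contrast. Of 20 measured genes of an NF-κB response list, 14 were past 1.5-fold higher in members and 0 lower, with a median log2 ratio of 0.83. Among them, the inhibitor gene Nfkbia was 2046 CPM in members and 936 CPM in the rest, 2.19-fold higher (2.13 to 2.24). The subunit genes were Rela at 1.87-fold, Rel at 1.82-fold, Relb at 1.73-fold and Nfkb2 at 2.13-fold. Birc3, an anti-apoptotic ubiquitin ligase, was 2.07-fold higher, Zc3h12a, the gene of an RNase that cuts cytokine mRNAs, 2.33-fold, and Irf1, an interferon regulatory factor, 2.32-fold. Those within 1.5-fold were Bcl3, Birc2, Sod2, Ikbke, Tnfrsf1b and Ripk2, and Sod2, a mitochondrial enzyme often induced by NF-κB, was 202 CPM in members and 176 CPM in the rest.

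Some of the inflammatory ligand genes were also higher. Of 9 measured chemokine genes, 4 were past 1.5-fold higher: Cxcl1, Cxcl10 (46.6 CPM in members, 21.2 CPM in the rest), the membrane-bound Cxcl16 (126 and 63.9 CPM) and Ccl20 (11.1 and 3.41 CPM). Cxcl17, a chemokine gene of mucosal epithelia, was 318 CPM in members and 352 CPM in the rest. Of 8 measured cytokine and receptor genes, 4 were past 1.5-fold higher: Csf3, Il6, Lif and Csf1, of which Il6 was 10.8 CPM in members and 4.43 CPM in the rest and Lif, a cytokine needed for implantation in mice, 25.4 and 16.2 CPM. Tnf was 3.32 CPM in members and 0.65 CPM in the rest, and Il1b had 0 molecules in members. The receptor genes for interleukin-1 and TNF were within 1.5-fold: Il1r1 was 36.8 CPM in members and 48.0 CPM in the rest, and Tnfrsf1a was 55.2 and 54.3 CPM.

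The AP-1 and immediate early list, which tissue handling can induce, had 11 of 23 genes past 1.5-fold higher and 0 lower. Its median log2 ratio was 0.56. Fosb was 217 CPM in members and 99.3 CPM in the rest, Atf3 437 and 269 CPM, and Junb 473 and 292 CPM. Fos was 564 and 499 CPM, 1.13-fold (1.08 to 1.18), and Jun 1.18-fold. The heat shock list, which handling can also induce, had 1 of 14 genes past 1.5-fold higher, 0 lower and a median log2 ratio of -0.12; Hspa1a was 554 CPM in members and 737 CPM in the rest. The part of cell isolation in these values and in those of the other lists was not tested.

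Growth factor genes of the EGF receptor family and Errfi1 were also compared, since Mig-6 acts on that receptor. Of 9 measured ligand and receptor genes, 4 were past 1.5-fold higher: Hbegf, the heparin-binding EGF-like ligand, with 300 CPM in members and 142 CPM in the rest, Egfr with 249 and 129 CPM, Erbb3 with 87.1 and 43.0 CPM, and Nrg1 with 52.1 and 27.5 CPM. Errfi1 was 669 CPM in members and 420 CPM in the rest, 1.59-fold higher (1.53 to 1.66). Over all luminal barcodes Errfi1 was 509 CPM in the library labelled knockout and 539 CPM in the control. The gene thus did not separate the luminal barcodes of the libraries. In stromal barcodes it was 739 CPM in the library labelled knockout and 194 CPM in the control, and in gland barcodes 594 and 831 CPM. Reads at the 3′ end that lie outside the removed part would not show a deletion, and the cause of these levels was not tested. The list of ERK feedback genes had 3 of 14 past 1.5-fold higher, Phlda1, Dusp5 and Errfi1, and 1 lower, Etv5, with a median log2 ratio of 0.13. Phlda1 was 1243 CPM in members and 597 CPM in the rest, and the ERK phosphatase Dusp6 was 40.2 and 43.6 CPM.

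Adhesion genes followed in part. Of 26 adhesion, matrix and wound-edge genes, 8 were past 1.5-fold higher and 0 lower, among them Vcam1, a second leukocyte adhesion gene (25.6 CPM in members, 9.31 CPM in the rest), the integrin genes Itgav (869 and 427 CPM) and Itga2, the urokinase genes Plau and Plaur, Emp1 and Krt80. Spp1, the integrin ligand osteopontin, was 1417 CPM in members and 1357 CPM in the rest. The LIF and STAT3 list had 5 of 12 genes past 1.5-fold higher: Pim1, Pim3, Cish, Il6ra and Lifr; Socs3, the usual STAT3 feedback gene, was 11.3 CPM in both groups.

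Genes of the hormone response and of luminal identity were mostly within 1.5-fold. Of 17 estrogen-response genes, 0 were past 1.5-fold in either direction, with Ltf at 1698 CPM in members and 1542 CPM in the rest. Of 10 measured progesterone-response genes, 0 were past 1.5-fold higher and 2 lower, with a median log2 ratio of -0.39; these were Lrp2, an endocytic receptor (6.30 CPM in members, 21.1 CPM in the rest), and Il17rb on few molecules. Among 19 luminal identity genes, Cldn4, a claudin, was 1.88-fold higher and Grhl2, an epithelial transcription factor, was lower, with a ratio of 0.64. Of 18 junction genes, 3 were past 1.5-fold higher and 0 lower, among them the tight junction genes Ocln, 1.62-fold higher, and Cldn23, 2.11-fold higher.

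The remaining lists gave from 0 to 4 genes each past 1.5-fold higher, beside 4.85% of all genes. The death list had 4 of 21 higher (Fas, the inflammatory caspase gene Casp4, the caspase inhibitor Cflar and Pmaip1) and 1 lower, Nlrp6. Casp4 was 289 CPM in members and 155 CPM in the rest. The interferon list had 2 of 13 higher, Rsad2 and Gbp2, the class I antigen list 1 of 10, Tap1, the prostaglandin list 0 of 9, and the cell cycle list 1 of 7, the inhibitor Cdkn1a (114 CPM in members, 56.0 CPM in the rest). The hypoxia list had 4 of 18 higher, among them Adm (946 and 551 CPM), and the ER stress list 3 of 16. The antimicrobial list had 1 of 6, Slpi. The nuclear RNA list had 1 of 6, Neat1, with 712 CPM in members and 326 CPM in the rest, while Malat1, another abundant nuclear RNA, was 3723 and 3629 CPM. All 17 respiratory chain genes lay below equality and within 1.5-fold, with a median log2 ratio of -0.23.

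The control library was not used to choose the members, so the same rule was applied to it to see whether the same genes accompany the score there. It held 622 luminal barcodes, of which 407 (65.4%) had no molecule of the 3 genes, so its high-score group, the highest-scoring 207, reached down to a score of 0.298 and 63 of them rested on 1 molecule. The lowest member score of 4.13 was reached by 33.3% of luminal barcodes in the library labelled knockout, where the rule sets the share, and by 52 of the 622 (8.36%, 6.31 to 10.8) in the control. Over all luminal barcodes Cxcl2 was 310 CPM in the library labelled knockout and 70.2 CPM in the control, 4.41-fold higher (4.06 to 4.79), Il1a was 86.9 and 25.3 CPM and Icam1 107 and 31.4 CPM. Each is a difference between 2 libraries and cannot be told apart from other differences between them.

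Choosing by 2 genes and measuring the other gave 6.32-fold more Cxcl2 (5.21 to 7.71), 5.04-fold more Icam1 (3.85 to 6.68) and 1.70-fold more Il1a (1.31 to 2.21) in the control barcodes so chosen. Of the 207 barcodes chosen, 21, 29 and 64 had no molecule of the 2 genes that chose them. The 3 genes thus went together in the control too, again with Il1a the loosest.

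Of 8032 genes measured in the control, 386 (4.81%) were at least 1.5-fold higher in its high-score group and 243 (3.03%) at least 1.5-fold lower. Over 7755 genes measured in both libraries, 346 were past 1.5-fold higher in members of the library labelled knockout and 360 in the control high-score group, with 183 shared, which is 52.9% of the set in the library labelled knockout and 50.8% of the control set. Of the lower genes, 295 and 207, 49 were shared, 16.6% and 23.7%. Over all 7755 genes, 4.64% were past 1.5-fold higher in the control high-score group and 2.67% past 1.5-fold lower. At any size of ratio in the control, 322 of the 346 higher genes and 248 of the 295 lower genes of the library labelled knockout had the same direction there. The median log2 ratio of all 8032 genes measured in the control was -0.05, with quartiles at -0.21 and 0.15. Below equality was thus the commoner direction there, which the count of lower genes has to be read beside.

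**Figure D4:**
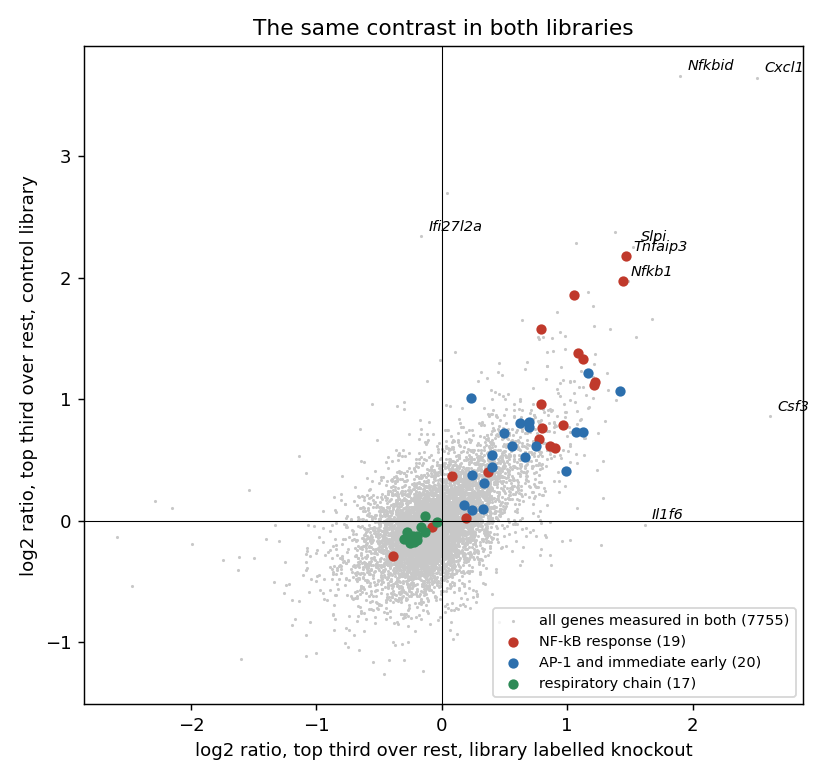
Each point is 1 of 7755 genes measured in both libraries, with the log2 ratio of the high-score group over the rest in the library labelled knockout across and in the control upwards; 3 gene lists are coloured. NF-κB and AP-1 genes lie mostly in the upper right, and Il1f6 and Csf3 lie farther to the right than upwards. Respiratory chain genes lie just below 0 across and mostly just below 0 upwards.

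The NF-κB list was high in the control as well, with 14 of 19 measured genes past 1.5-fold higher in the control high-score group against 4.81% of all genes, 0 lower and a median log2 ratio of 0.79. Nfkbia was 1069 CPM in the control high-score group and 424 CPM in its rest, Nfkb1 280 and 71.2 CPM, and Tnfaip3 42.5 and 9.38 CPM. Cxcl1 was 122 and 9.71 CPM, 12.5-fold higher (9.50 to 16.8). The AP-1 list had 11 of 20 past 1.5-fold higher, and Hbegf, Egfr, Erbb3 and Nrg1 were again the 4 of the EGF receptor family past 1.5-fold, of 7 measured. The chemokine and cytokine lists followed the score less. Of 7 measured chemokine genes 2 were past 1.5-fold higher, with a median log2 ratio of -0.09, beside 0.36 in the library labelled knockout. Of 5 measured cytokine and receptor genes 1 was higher and 1 lower, with a median of 0.03, beside 0.23. Of the 15 genes singled out as higher, 13 were measured in the control and 12 of them were past 1.5-fold there. Of the 15 singled out as lower, 14 lay below equality, the commoner direction of all genes there, and 3 were past 1.5-fold, namely Ror2, Rpp25l and Srek1ip1.

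A few genes went with the score in the library labelled knockout and less or not at all in the control. Il1f6 was 201 CPM in members and 65.6 CPM in the rest of the library labelled knockout, but 35.2 CPM in the high-score group and 36.0 CPM in the rest of the control, a ratio of 0.977 (0.775 to 1.23). Csf3 was 127 CPM in the control high-score group and 69.8 CPM in the control rest, 1.81-fold higher (1.58 to 2.08), beside 122 CPM in members and 19.9 CPM in the rest of the library labelled knockout. Ehhadh and Slc5a8 had 17 and 21 molecules in the control and were below the minimum there. The difference between the libraries in these ratios was not tested.

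Macrophage RNA was not evenly spread in the control. C1qa, C1qb and C1qc had 0 molecules in the 444 members and 15 in the rest of the library labelled knockout. They had 104 molecules in 5 barcodes of the control high-score group, 100 of them in 1 barcode, and 3 in the control rest. An alternative left out luminal barcodes with molecules of some immune marker genes. It removed 20 in the library labelled knockout, 5 of them members, and 11 in the control, 4 of them in the high-score group. The median log2 ratio of the NF-κB list was then 0.85 in the library labelled knockout and 0.79 in the control. A macrophage list molecule was present in 37.4% of members and 24.2% of the control high-score group, so most such barcodes stayed in. Acta2 was higher with the score in both, 2.10-fold (1.83 to 2.40) in the library labelled knockout and 4.87-fold (3.45 to 6.98) in the control, with 37.5 CPM in the control high-score group and 7.70 CPM in the control rest. The whole smooth muscle and pericyte list was 1.91-fold higher (1.69 to 2.16) in the library labelled knockout and 3.10-fold higher (2.41 to 4.0) in the control. In the control, Cnn1 had 22 molecules in the high-score group and 6 in the rest, Tagln 11 and 5, Notch3 10 and 10, Des 4 and 24, and Myh11 1 and 8; the part of such RNA in the results was not tested.

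The members did not form 1 cluster. When the 1333 barcodes were clustered on their other genes, 7 clusters resulted, and members made up 73.5% of cluster 4 (144 of 196 barcodes), 55.0% of cluster 2 (104 of 189) and 39.2% of cluster 1 (153 of 390). These 3 clusters held 401 of the 444 members. Members were 9.51% of cluster 0, 2.94% of cluster 3 and 1.79% of cluster 5, and 8 of 27 barcodes of cluster 6. The clusters stay unnamed.

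Each of the 3 clusters carried the members' genes in its own mix. Cluster 4 was led by Ehhadh, Ccnb1ip1, Gadd45b, Nfkbid and Csf3, and held Ehhadh at 110 CPM against 18.4 CPM in cluster 1 and 14.2 CPM in cluster 2. Cxcl1 was 548 CPM in cluster 4, against 272 CPM in cluster 2 and 214 CPM in cluster 1. Cluster 2 was led by Bach2 and Neat1, held Neat1 at 1424 CPM, against 515 CPM in cluster 4, and had the highest Il1f6, at 273 CPM. Cluster 1 was led by Shroom4 and Alpk1, with Nfkb1 at 369 CPM, against 457 CPM in cluster 4 and 462 CPM in cluster 2. In cluster 3, led by AY036118 and Krt84, S100g was 5175 CPM and Nfkbia 462 CPM.

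**Figure D5:**
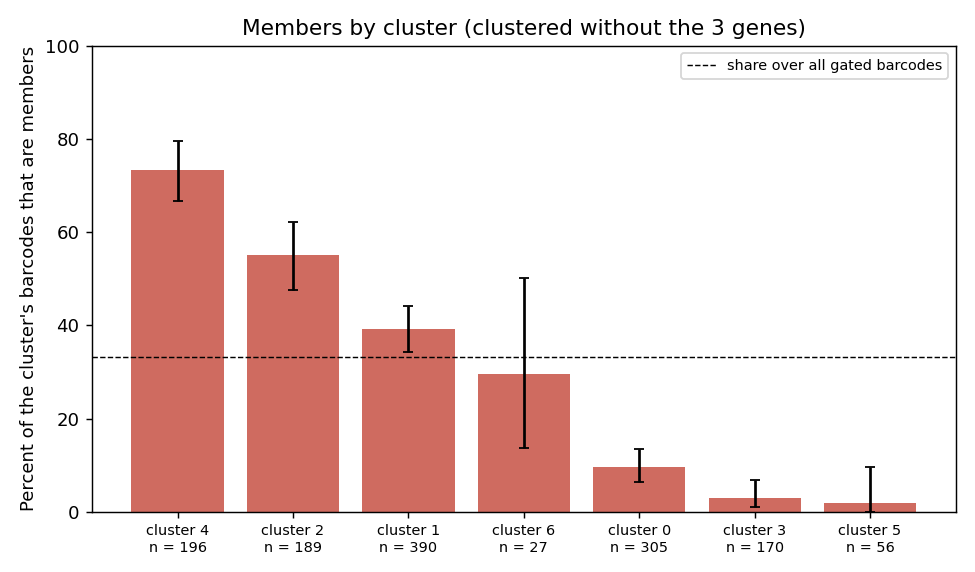
Percent of the barcodes of each cluster that are members, with 95% binomial intervals and the number of barcodes below each bar; the dashed line is the share over all luminal barcodes, 33.3%. Members are 73.5% of cluster 4 and 55.0% of cluster 2 but occur in all 7 clusters.

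Within clusters 1, 2 and 4, all 15 genes singled out as higher were higher in members than in the rest of the same cluster. They were chosen on these same barcodes, so this is a description only. The interval reached equality for Slpi (1.27, 0.91 to 1.80) and Fosl1 (1.28, 0.93 to 1.78) in cluster 2 and for Gdf15 (1.19, 0.99 to 1.44) in cluster 4. Cxcl1 was 3.23-fold higher in cluster 4, 2.98-fold in cluster 2 and 3.24-fold in cluster 1, and Csf3 was 4.54-fold, 2.75-fold and 3.71-fold higher. The genes singled out as lower were less even: Rmst had ratios of 1.16, 0.65 and 0.73 in clusters 4, 2 and 1, Rpp25l 1.45, 0.46 and 0.68, and S100g 0.74, 1.22 and 0.75. Cluster 5, led by Gas6 and the gland gene Spink1, held 1 member of 56 barcodes and much of several lower genes, such as Ppp2r2b at 710 CPM, Anpep at 434 CPM and Lrp2 at 107 CPM. Without clusters 5 and 6, an alternative chosen after seeing the data, 424 genes were past 1.5-fold higher and 319 lower, and the ratio of Anpep was 0.69, that of Tceal9 0.72, that of Gpx2 0.74, that of Slc39a4 0.668, that of Il17rb 0.694 and that of Etv5 0.712, no longer past 1.5-fold, while that of Lrp2 was 0.385.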

How the data were processed

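Each deposited matrix gives whole-number counts of unique molecules (UMIs) for 32285 features in every barcode; per the file headers, the software was Cell Ranger 7.0.1. The submitters' processing notes name Seurat and mm39. No annotation of cells by the authors was used here. Totals were 23317904 UMIs in 3118 barcodes of the library labelled knockout and 44871170 in 4627 of the control, with 1 library a genotype. UMIs were summed per group and scaled to the group's total (CPM). Ratios carry exact conditional, sums exact Poisson and shares exact binomial 95% intervals, which cover counting error only. Doublets were left in and removed as an alternative. Genes were singled out by a rule: the 15 highest and 15 lowest by the interval bound nearest a ratio of 1, among genes with at least 100 UMIs over both groups and at least 50 CPM in the higher one, without the score and gate genes, mitochondrial, ribosomal and hemoglobin genes and unnamed models. Members and the 23 gene lists were chosen with earlier results of these data known. Near-identical families (such as the H2 genes) can share reads. Clusters used scanpy 1.11.5, 2000 variable genes without the 3 score genes, 20 components, 15 neighbours and resolution 0.5; sums used numpy 2.4.6 and scipy 1.17.1. The ratio step was tested on simulated counts. Values of some genes on the lists are not reported here.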

Additional observations from a re-analysis of the deposited data

Results flagged for a closer look

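Krt20, a keratin gene of differentiated epithelium, was the 1 gene of 7755 that was past 1.5-fold lower in members of the library labelled knockout and past 1.5-fold higher in the high-score group of the control. It was singled out after its values were seen. Its ratio was 0.637 (0.469 to 0.856) in the library labelled knockout, on 62 UMIs in members and 175 in the rest, and 1.69 (1.16 to 2.47) in the control, on 58 UMIs in the high-score group and 60 in the rest. Each direction rests on 1 library, and the difference between the libraries was not tested.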

How the results depend on the processing

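No paired analysis was possible because each genotype has 1 library. Under 17 alternatives all 15 genes singled out as higher stayed past 1.5-fold, and 9 of the 15 lower ones did; S100g was past it in 4. Against 429 genes past 1.5-fold higher in members of the library labelled knockout, 222 were with every barcode thinned to 2000 UMIs, 755 with a minimum of 20 UMIs and 255 with 500. Against 411 lower, 128 were after thinning, 620 by the mean over barcodes, and 1246 and 60 at those minimums. In the control, against 386 higher, 72 were after thinning, 235 with the highest-scoring 50% as members, 239 with the score without Cxcl2, 793 and 178 at minimums of 20 and 500, and 173 in held-out UMIs. Against 243 lower, the control had 49 after thinning, 534 with the highest 25%, 108 with the highest 50%, 139 without Cxcl2, 908 and 19 at those minimums, and 144 in held-out UMIs. Thinning and higher minimums leave fewer genes measured; the cause of the other changes was not tested. The NF-κB median log2 ratio was 1.00 with the highest-scoring 50% in the library labelled knockout and 1.06 with the highest-scoring 25% in the control. Of the 23 lists, 9 had a median that changed sign under some alternative in the library labelled knockout, the cytokine, ERK feedback and interferon lists among them. In the control 14 did. The medians of the NF-κB and AP-1 lists did not change sign in either library. In the control, a single molecule decides whether 63 barcodes belong to the high-score group.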
